A study of Mus musculus with 1024 samples.

Results

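The angiomotins Amot, Amotl1 and Amotl2 and 4 of their scaffold partners, Magi1, Magi3, Mpdz and Nf2, were followed in single cells of the mouse aorta, including mice with an induced endothelial deletion of Amotl2. These 7 genes were chosen by name among the 24422 gene lines of the count table, and all 7 had counts. Single cells from the aortic lumen were sorted into wells and sequenced by the Smart-seq2 protocol, and 784 of 1024 wells held at least 20000 gene counts and 500 genes and were kept. Of these, 676 came from the Cd31+ Cd45- gate (labelled Endothelial) and 108 from the Cd31- Cd45- gate (labelled DoubleNegative). Every well, WT or KO, carries the same strain label, Amotl2flow/flow / Cdh5-RREert /ROSA26-EYFP, so WT and KO are known only from the genotype label. In the study's methods, KO mice were C57BL/6 animals carrying floxed Amotl2 alleles, the tamoxifen-inducible Cdh5(PAC)-CreERT2 driver, which is active in endothelial cells, and a ROSA26-EYFP reporter of recombination. All animals were 3 months old. Cells of several mice were pooled in each of 2 preparations per genotype. The genotype label calls each preparation a sort (for example WT_sort_2), and no label names the mouse of a well. The first preparation put WT and KO on different plates. In it the effect of the plate and that of the genotype cannot be told apart.

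Angiomotins are scaffold proteins of cell junctions. They tie junctional receptors to actin filaments, contain a coiled coil and carry a tail that binds PDZ domains. They also hold the transcriptional coactivator YAP outside the nucleus. Amotl2 binds the VE-cadherin complex of endothelial junctions. Magi1 and Magi3 encode membrane-associated guanylate kinases with several PDZ domains, Mpdz encodes the multi-PDZ protein MUPP1, and Nf2 encodes merlin, a FERM-domain protein that binds angiomotins and feeds into the Hippo kinases.

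On GRCm38, with GENCODE M21 as the annotation, Amot lies at chrX:145446425-145505181 on the minus strand, Amotl1 at chr9:14541966-14645056 on the minus strand and Amotl2 at chr9:102716672-102733418 on the plus strand. The 3 genes have exons totalling 8402, 10064 and 6289 bases, and their longest coding frames hold 1125, 1004 and 804 codons. No stretch of 30 bases is shared between the annotated transcripts of any pair of the 7 genes. Magi1 (chr6:93675455-94283917, minus strand), Magi3 (chr3:104013259-104220374, minus strand), Mpdz (chr4:81278500-81442815, minus strand) and Nf2 (chr11:4765845-4849536, minus strand) span 608, 207, 164 and 83.7 kb. Exon sequence of Magi3 overlaps the span of the gene Phtf1, which is also in the count table. Whether it overlaps an exon of Phtf1 was not tested, so Magi3 counts may be uncertain there. The study names exon 3 as the deleted part of Amotl2. In the principal annotated transcript, which has 10 exons, this is a coding exon of 295 bases at chr9:102723569-102723863, shown 5′ to 3′ on the plus strand, from the GENCODE transcript, because it is the sequence that recombination is meant to remove. It is numbered 3 in 3 of the 5 annotated transcripts that hold it, and whether the floxed allele follows this numbering was not tested.

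Amotl2 exon 3: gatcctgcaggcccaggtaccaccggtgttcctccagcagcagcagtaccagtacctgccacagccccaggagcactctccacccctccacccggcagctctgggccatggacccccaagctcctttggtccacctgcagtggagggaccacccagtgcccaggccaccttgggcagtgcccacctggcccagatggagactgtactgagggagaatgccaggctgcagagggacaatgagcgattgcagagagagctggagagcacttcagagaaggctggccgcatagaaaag

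This exon makes up 4.69% of the annotated exon length of Amotl2. The deposited values are counts per gene, so a transcript that lacks it is still counted through its other exons, and the counts of Amotl2 by themselves do not measure the deletion.

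Wells were summed by genotype, gate and preparation, which gave 8 sums, and levels are given as CPM (counts of a gene for every 1000000 gene counts of the sum). A level in a sum joins the share of wells that held the transcript with the amount in each well. The Cd31+ sums held 235 and 50 WT wells and 302 and 89 KO wells, with totals of 8470943 to 94881185 gene counts. The Cd31- sums held 42 and 12 WT wells and 40 and 14 KO wells, with totals of 926398 to 9435015, so that a single read was worth over 1 CPM in both Cd31- sums of preparation 2. The Cd31+ gate matched its label, as 10 endothelial markers summed to 17419 to 20064 CPM there. In the Cd31- gate they summed to 5.40 to 7.84 CPM in KO and to 39.5 and 1303 CPM in WT. The 1303 CPM came from WT preparation 2, where 1 of 12 wells grouped with the Cd31+ wells. The Cd31- wells carried smooth muscle markers (21433 to 54205 CPM over 8 genes) and fibroblast markers (5968 to 42122 CPM over 7 genes), against 775 to 1729 and 417 to 887 CPM in the Cd31+ wells. Leukocyte markers summed to at most 4.66 CPM in any of the 8 sums. Adipocyte markers (3 genes) summed to 166 CPM in the Cd31+ sum of WT preparation 1, where 2 of 235 wells had a count and 1 of them held nearly all, and to 0 in the other 7 sums. Xist was counted in 3 of 784 wells and Y-linked genes in 661, and no well had Xist without a Y-linked count. The Y-linked gene Ddx3y stood at 55.1 to 129 CPM over the 8 sums, and Xist at no more than 1.06 CPM. All sums thus carried the male pattern, which bears on Amot as an X-linked gene.

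The targeted gene was examined first. Amotl2 had 59.9 CPM in preparation 1 and 94.0 in preparation 2 of the WT Cd31+ wells, and 51.9 and 45.7 CPM in the KO Cd31+ wells. Both KO sums were below both WT sums, but the lower WT sum and the higher KO sum lay close together. The fitted KO effect was -0.66 on the log2 scale (SE 0.32, 95% interval -1.37 to 0.058, n = 2 sums per genotype), and the adjusted p was 1.00, so no loss was called, which does not show that the level was unchanged. All such p are from the quasi-likelihood test of edgeR, adjusted over every gene tested (Benjamini-Hochberg), with 0.05 as the threshold. Within preparations, the log2 ratio of KO to WT was -0.21 in the first and -1.04 in the second. Leaving out 1 sum at a time moved the fitted value between -0.97 and -0.27. It stayed below 0 in all 14 alternatives run, none of which called it.

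The recombination reporter was also read in every sum. EYFP, a fluorescent protein transcribed after Cre has cut its stop cassette, stood at 113 and 85.5 CPM in the KO Cd31+ sums and at 2.38 and 0.353 CPM in the WT Cd31+ sums. It had a count in 231 of 302 and 76 of 89 KO Cd31+ wells, in 4 of 235 and 2 of 50 WT Cd31+ wells, and in 0 of the 108 Cd31- wells. That 0 allows up to 2.78% of wells with a count (3 wells of 108), a limit on detection only, since EYFP also had no count in 71 and 13 of the KO Cd31+ wells. Both KO sums were above both WT sums, with a KO effect of 6.00 (SE 0.64) whose edgeR adjusted p of 0.0596 did not pass. With only the EYFP-counted KO wells set against all WT wells, the KO effect on Amotl2 was -0.68. Among KO Cd31+ wells of preparation 1, Amotl2 stood at 52.9 CPM in the 231 wells with an EYFP count and at 47.8 CPM in the 71 without. In preparation 2 the order was turned, with 42.9 CPM in 76 wells and 77.7 CPM in 13 wells. Wells with an EYFP count were also deeper, with medians of 276946 against 218102 gene counts in preparation 1 and 64002 against 37368 in preparation 2, and the part of depth in this split was not tested.

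Amotl2 was detected in a smaller share of KO than of WT Cd31+ wells in each preparation. A count was present in 53.6% of WT Cd31+ wells of preparation 1 (126 of 235, exact binomial 95% interval 47.0 to 60.1%) and in 36.8% of KO wells (111 of 302, 31.3 to 42.5%). Preparation 2 gave 74.0% of WT wells (37 of 50, 59.7 to 85.4%) and 57.3% of KO wells (51 of 89, 46.4 to 67.7%). The KO wells were deeper than the WT wells in preparation 1 and shallower in preparation 2. With every well thinned to 20000 counts, 35.3% of WT and 24.8% of KO wells had a count in the first preparation, and 60.0% and 39.3% in the second, so the KO share was again the lower one in each. These intervals cover counting error only, and wells of a preparation are not replicates. With 2 preparations per genotype, an exact two-sided permutation test of the shares cannot go below p = 0.333, and no test was made. The lower KO share was not particular to Amotl2. At own depth, Amot, Magi1, Magi3, Mpdz and Nf2 also had a lower share in KO than in WT Cd31+ wells in each preparation. After thinning, this remained for Magi1, Mpdz and Nf2. Thinned shares of Nf2 were 25.1% in WT and 21.5% in KO in preparation 1, and 36.0% and 25.8% in preparation 2.

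**Figure D1:**
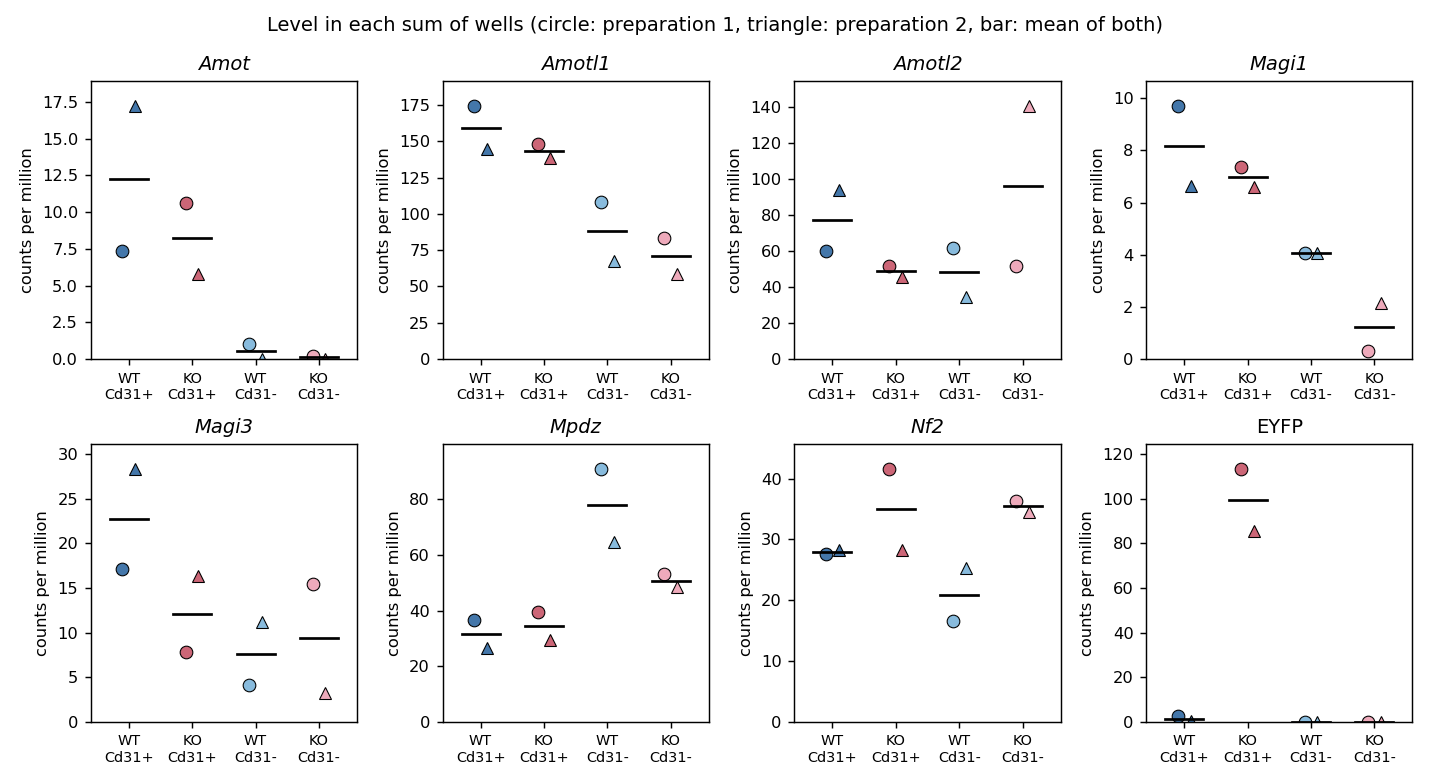
Levels in CPM of the 7 genes and of the EYFP reporter in each of the 8 sums of wells, by genotype and sort gate. Circles are preparation 1, triangles preparation 2 and bars the mean of both. Amot is near 0 in the Cd31- sums, Amotl2 spans 34.4 to 140 CPM over the Cd31- sums, and EYFP is high only in the KO Cd31+ sums.

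Whether the related Amot or Amotl1 differed where Amotl2 was deleted was asked next. Neither was called. Amotl1 was nearly level, at 174 and 145 CPM in the WT Cd31+ sums and 148 and 138 CPM in the KO Cd31+ sums. The KO range sat at the low end of the WT range, and the genotypes overlapped. The KO effect on Amotl1 was -0.15 (SE 0.25, 95% interval -0.72 to 0.42, edgeR adjusted p = 1.00), an interval that leaves out a change of 1 log2 unit, a 2-fold change, in either direction. Within preparations the log2 ratios were -0.23 and -0.068. Over 14 alternatives the value ran from -0.25 to -0.038.

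Amot was too sparse for a comparable limit. It stood at 7.36 and 17.2 CPM in the WT Cd31+ sums and at 10.6 and 5.78 CPM in the KO Cd31+ sums, and these ranges overlapped. The KO effect was -0.59 (SE 0.65, 95% interval -2.07 to 0.88, edgeR adjusted p = 1.00). The preparations disagreed in sign, with log2 ratios of 0.53 in the first and -1.57 in the second. Without the WT sum of preparation 2 the fitted value turned to 0.17. A single well held 22.6 to 44.9% of the Amot counts of each Cd31+ sum.

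For both genes, the difference in the share of wells between genotypes was not the same in preparation 1 as in preparation 2. Amotl1 had a count in 86.4% and 92% of WT Cd31+ wells and in 70.9% and 92.1% of KO Cd31+ wells, and, after thinning, in 75.7% and 72.0% against 56.3% and 78.7%. The lower share in KO was thus seen in preparation 1, where the genotypes were on different plates, and not in preparation 2, where they shared one. Amot had a count in 11.1% and 36% of WT Cd31+ wells and in 9.60% and 10.1% of KO Cd31+ wells. After thinning these were 5.96% and 14% against 5.96% and 4.49%.

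The angiomotins were also read together in each well. Of 285 WT Cd31+ wells, 25 (8.77%) had counts of all 3 angiomotins and 15 (5.26%) of none. Of 391 KO Cd31+ wells, 16 (4.09%) had all 3 and 56 (14.3%) none. Amotl2 was detected in 57.8% of WT and 42.9% of KO Cd31+ wells that had an Amotl1 count, and in 52.8% and 36.8% of those without one. No Cd31- well of 108 had all 3. These are descriptions over wells of unequal depth, with no test. They pool both preparations, the first of which put WT and KO on different plates.

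No scaffold partner was called between genotypes in the Cd31+ wells. The WT sums held 27.6 and 28.32 CPM of Nf2 and the KO sums 41.6 and 28.33, with a KO effect of 0.32 (SE 0.34). That effect was 0.12 without KO preparation 1, 0.49 without KO preparation 2 and 0.040 with only the EYFP-counted KO wells. Nf2 stood at 34.6 and 23.1 CPM in the 231 and 76 KO wells with an EYFP count. In the 71 and 13 wells without one it stood at 71.6 and 89.7 CPM, the latter on 60 counts. After thinning, Nf2 had a count in 21.2% of wells with EYFP and 22.5% of those without in preparation 1. In preparation 2 these shares were 19.7% and 61.5%, and the part of depth in this split was not tested. The WT and KO sums of Nf2 did not overlap, but only by the margin between 28.32 and 28.33 CPM in preparation 2. For Magi3, the WT sums held 17.2 and 28.3 CPM and the KO sums 7.83 and 16.3. Its KO sums were below the WT sums, with an effect of -0.89 (SE 0.56) that ran from -0.38 without KO preparation 1 to -1.62 without KO preparation 2 and was -0.46 without WT preparation 2. A single well held 55.5% of the Magi3 counts of WT preparation 2, and without each sum's top well the WT sums held 14.5 and 15.3 CPM and the KO sums 7.21 and 13.5. Mpdz overlapped, with WT sums of 36.6 and 26.6 CPM, KO sums of 39.6 and 29.3 CPM and an effect of 0.12 (SE 0.35). Magi1 had 9.69 and 6.62 CPM in the WT sums, 7.35 and 6.61 CPM in the KO sums and an effect of -0.22 (SE 0.66).

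Across the 7 genes, edgeR called 0 between genotypes in the Cd31+ wells, against 0.0% of 12702 genes tested. At an unadjusted p under 0.05, 0 of the 7 and 468 of all genes passed, and DESeq2 called 0 of the 7 and 37 of all genes. Both KO sums were below both WT sums for 2 of the 7 (Amotl2 and Magi3), against 14.6% of all genes tested, and above them for 1 (Nf2), against 14.9%. The median KO effect of the 7 was -0.22, beside 0.0025 over all genes tested.

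**Figure D2:**
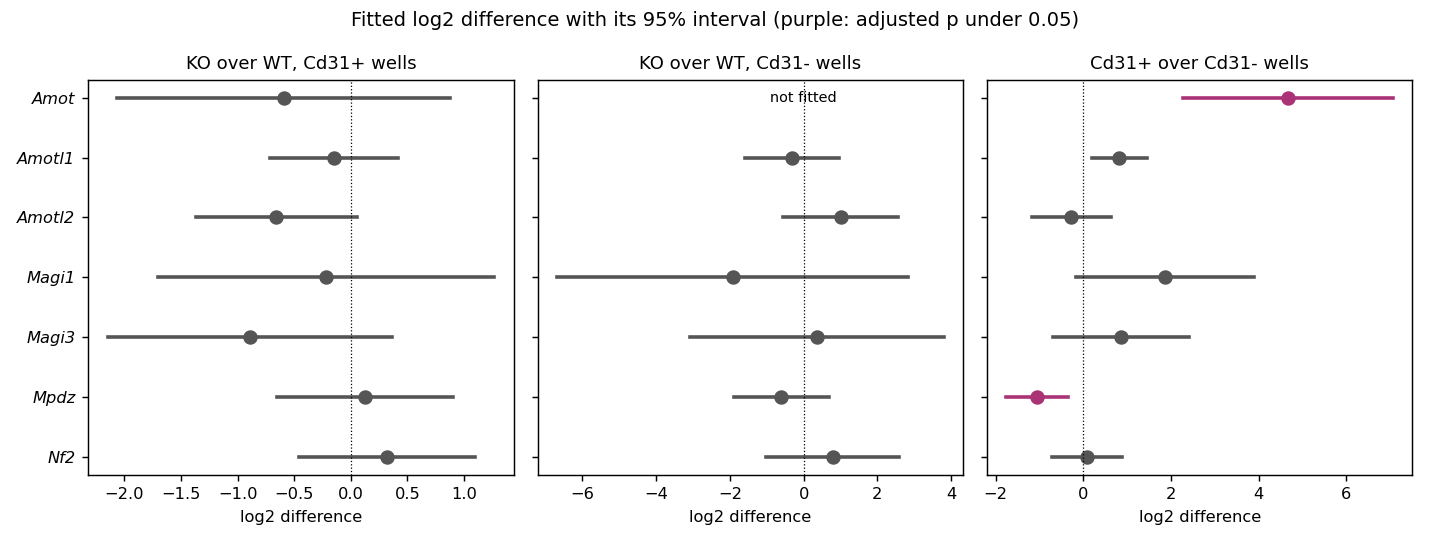
Fitted log2 differences of the 7 genes with 95% intervals, for KO over WT in Cd31+ wells (left), KO over WT in Cd31- wells (middle) and Cd31+ over Cd31- wells (right). Purple marks an adjusted p under 0.05, which Amot and Mpdz reached in the right panel, and the horizontal scales differ between panels.

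Cd31- wells came from outside the endothelial gate, where the Cdh5 driver is not meant to act. Their WT sums held 61.8 and 34.4 CPM of Amotl2, and their KO sums 51.7 and 140 CPM. The KO sum of preparation 2 was the highest of all 8 sums, on 130 counts from 14 wells, and the other KO sum lay between the WT sums. The KO effect was 1.01 (SE 0.69, 95% interval -0.56 to 2.57, edgeR adjusted p = 1.00), and without the KO sum of preparation 2 it was 0.10. The log2 ratios within preparations had opposite signs, -0.26 and 2.03. The Cd31- wells also differed in makeup: in preparation 1 they held 16 smooth muscle-like and 26 fibroblast-like wells in WT, and 31 and 9 in KO. In the smooth muscle-like wells alone, the WT sums held 37.9 and 18.8 CPM of Amotl2 and the KO sums 37.5 and 117, and the fitted effect was 1.48 (SE 0.81).

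The other genes were not called between genotypes in the Cd31- wells either. The WT sums held 108 and 67.8 CPM of Amotl1 and the KO sums 83.3 and 58.3, which overlapped, with an effect of -0.31 (SE 0.56). Mpdz was at 90.9 and 64.8 CPM in the WT sums but at 53.0 and 48.6 in the KO sums, so that both KO sums were lower, with an effect of -0.61 (SE 0.57). Nf2 was at 16.6 and 25.3 CPM in the WT sums but at 36.4 and 34.5 in the KO sums, so that both KO sums were higher, with an effect of 0.79 (SE 0.80). A single well held 71.9% of the 32 Nf2 counts of KO preparation 2. Without each sum's top well the genotypes overlapped for both genes. Mpdz was then at 74.5 and 30.6 CPM in WT and 39.0 and 35.3 in KO. Nf2 was then at 12.2 and 12.6 CPM in WT and 27.0 and 11.2 in KO. Magi1 and Magi3 had 2 to 146 counts per Cd31- sum. Their effects were -1.93 (SE 2.10) and 0.37 (SE 1.51). Amot fell under the filter on low counts and was not fitted. edgeR called 0 of the 6 fitted genes, against 0.0% of 10544 tested. At an unadjusted p under 0.05, 0 of the 6 and 275 of all genes passed, and DESeq2 called 0 of the 6 and 5 of all genes. Both KO sums were below both WT sums for 2 of the 7 (Magi1 and Mpdz), against 15.1% of genes tested, and above them for 1 (Nf2), against 13.6%.

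The KO effect was also compared between the gates. Amotl2 had the interaction with the smallest p of the 7, -1.66 on the log2 scale in the direction of a lower KO level in Cd31+ wells (SE 0.80, 95% interval -3.47 to 0.16, edgeR adjusted p = 0.964). It was -0.73 without the Cd31- sum of KO preparation 2 and -2.22 without that of KO preparation 1. The values for Amotl1 and Amot were 0.14 (SE 0.55) and 1.43 (SE 1.97). edgeR called 0 of the 7, against 0.0% of 12729 genes. DESeq2 called 0 of the 7 and 46 of all genes, and at an unadjusted p under 0.05 edgeR passed 0 of the 7 and 657 of all genes.

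Of the 7 genes, Amot differed most between the gates. It had 1547 counts in the Cd31+ wells and 9 in the Cd31- wells, 7 of them in a single WT well and 2 in a single KO well. Its level was 5.78 to 17.2 CPM in the Cd31+ sums, 1.06 and 0.212 CPM in the Cd31- sums of preparation 1, and 0 in those of preparation 2, where 3 counts would have been 3.04 and 3.24 CPM. The 4 Cd31+ sums lay above the 4 Cd31- sums. Pooled over the sums of a gate, Amot was at 10.004 CPM (95% counting interval 9.51 to 10.5) in Cd31+ and 0.5004 CPM (0.229 to 0.950) in Cd31- wells. The fitted difference was 4.67 on the log2 scale (SE 1.06, 95% interval 2.27 to 7.07, edgeR adjusted p = 0.0160). Amot passed the filter on low counts among the Cd31+ sums and not among the Cd31- sums. It thus entered this fit through the gate where it is high, which limits what the p can show. With the cell suspension as a block the difference was 4.81 and the adjusted p 0.0619, and among wells of at least 100000 counts it was 4.14 with an adjusted p of 0.0812. The call was also lost without the Cd31+ sum of KO preparation 1 (adjusted p = 0.0730), of KO preparation 2 (0.0506) or of WT preparation 2 (0.0732), and without the Cd31- sum of KO preparation 1 (0.0516). Over all 15 alternatives the adjusted p ran from 0.000149 to 0.0812, with 9 called and every difference above 4.13.

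Over all Cd31+ wells, Amot had a count in 82 of 676 (12.1%, exact 95% interval 9.76 to 14.8%), but the share was 36% (22.9 to 50.8%) in WT preparation 2 against 9.60 to 11.1% in the other 3 sums. It had a count in 2 of 108 Cd31- wells (1.85%, 0.225 to 6.53%). After thinning, 43 Cd31+ wells (6.36%) and 0 of 108 Cd31- wells had one. The latter allows up to 2.78% of wells with a count at the thinned depth (3 wells of 108), which limits detection and not the share of cells that express Amot. Cdh5, which cells outside the endothelium should lack, had a count in 1 well each of 3 Cd31- sums.

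Mpdz went the other way. It stood at 26.6 to 39.6 CPM in the Cd31+ sums and at 48.6 to 90.9 CPM in the Cd31- sums, which did not overlap. A single well held 23.4 to 59.4% of the Mpdz counts of each Cd31- sum. Without each sum's top well the gates overlapped, at 27.2 to 35.0 CPM in Cd31+ and 30.6 to 74.5 CPM in Cd31- sums. The fitted difference was -1.05 (SE 0.31, 95% interval -1.76 to -0.34, edgeR adjusted p = 0.0466). This call was close to the threshold. The adjusted p was 0.0889 with the suspension as a block, 0.0820 without the filter on low counts and 0.116 in thinned wells, and it was over 0.05 without any 1 of 7 sums, with 0.0701 as the lowest and 0.241 as the highest. It held without the Cd31- sum of WT preparation 2. The value stayed between -1.32 and -0.76 over the 15 alternatives. In thinned wells, Mpdz had a count in 43 of 108 Cd31- wells (39.8%, exact 95% interval 30.5 to 49.7%) and 152 of 676 Cd31+ wells (22.5%, 19.4 to 25.8%).

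Amotl1 was higher in each Cd31+ sum, at 138 to 174 CPM, than in each Cd31- sum, at 58.3 to 108 CPM. The fitted difference was 0.82 (SE 0.28, 95% interval 0.19 to 1.45), with an edgeR adjusted p of 0.0719 that did not pass. Without the Cd31- sum of WT preparation 1, the highest of its gate, it was 1.02 with an adjusted p of 0.0334. Magi1, at 6.61 to 9.69 CPM in Cd31+ and 0.318 to 4.07 CPM in Cd31- sums, did not overlap either but rested on 36 counts in all Cd31- wells. Its difference was 1.87 (SE 0.90, adjusted p = 0.196). Amotl2 (-0.27, SE 0.40), Nf2 (0.092, SE 0.35) and Magi3 (0.87, SE 0.68) overlapped between gates and were not called. This comparison averages WT with KO, and in KO Amotl2 is targeted in the endothelial gate only. The WT sums of Amotl2 held 59.9 and 94.0 CPM in Cd31+ and 61.8 and 34.4 CPM in Cd31- wells. Its KO sums held 51.9 and 45.7 CPM in Cd31+ and 51.7 and 140 CPM in Cd31- wells.

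In the gate comparison edgeR thus called 2 of the 7, against 19% of 12729 genes. That was 1 higher in Cd31+ wells, against 9.79% of all genes, and 1 lower, against 9.25%. All 4 Cd31+ sums were above all 4 Cd31- sums for 3 of the 7 (Amot, Amotl1 and Magi1), against 17.3% of genes, and below them for 1 (Mpdz), against 8.98%. The median difference of the 7 was 0.82, beside 0.15 over all genes tested.

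**Figure D3:**
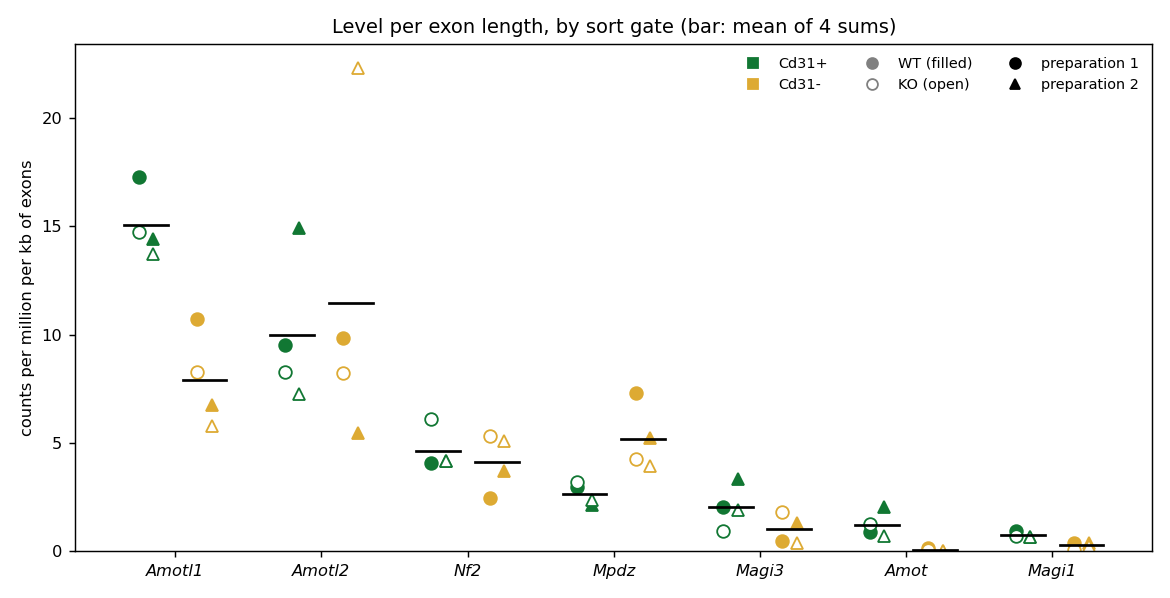
CPM per kilobase of annotated exons for the 7 genes in each sum, Cd31+ in green and Cd31- in yellow, WT filled and KO open, circles for preparation 1 and triangles for preparation 2, with a bar at the mean of 4 sums. Amotl1 and Amotl2 are the highest in every sum, and Magi1 and Amot are among the lowest.

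Per exon length, Amotl1 and Amotl2 were the most abundant of the 7 in all 8 sums. In Cd31+ wells Amotl1 stood at 13.7 to 17.3 and Amotl2 at 7.26 to 14.9 CPM per kb, and their ranges overlapped, with Amotl1 the higher in 3 of the 4 sums. Nf2 followed at 4.05 to 6.10 and Mpdz at 2.14 to 3.18 CPM per kb. Magi3 (0.919 to 3.32), Amot (0.688 to 2.05) and Magi1 (0.625 to 0.916) overlapped with one another at the bottom of the order, and Magi3 overlapped with Mpdz. In Cd31- wells, Amotl2 at 5.47 to 22.3 and Amotl1 at 5.79 to 10.7 CPM per kb overlapped, as did Mpdz at 3.91 to 7.31 and Nf2 at 2.43 to 5.33. Magi3 at 0.380 to 1.82, Magi1 at 0.0301 to 0.385 and Amot at 0 to 0.126 CPM per kb came last, Magi3 and Magi1 overlapping by a small margin and Magi1 with Amot more widely. Smart-seq2 amplifies full-length cDNA without molecular identifiers, so these orders rest on reads and on annotated rather than used exons.

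Amotl1 was also the gene detected in the most wells of each gate, followed by Amotl2 in the Cd31+ and by Mpdz in the Cd31- wells. In thinned Cd31+ wells, counts were found for Amotl1 in 67.2%, Amotl2 in 33.0%, Nf2 in 24.4%, Mpdz in 22.5%, Magi3 in 12.4%, Magi1 in 7.25% and Amot in 6.36%. In thinned Cd31- wells they were found for Amotl1 in 52.8%, Mpdz in 39.8%, Amotl2 in 35.2%, Nf2 in 22.2%, Magi3 in 9.26%, Magi1 in 5.56% and Amot in 0 of 108. Before thinning, Amotl1 had a count in 80.6% of Cd31+ and 67.6% of Cd31- wells, and Amotl2 in 48.1% and 50.0%. These shares pool WT and KO wells, and 391 of the 676 Cd31+ wells were KO.

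**Figure D4:**
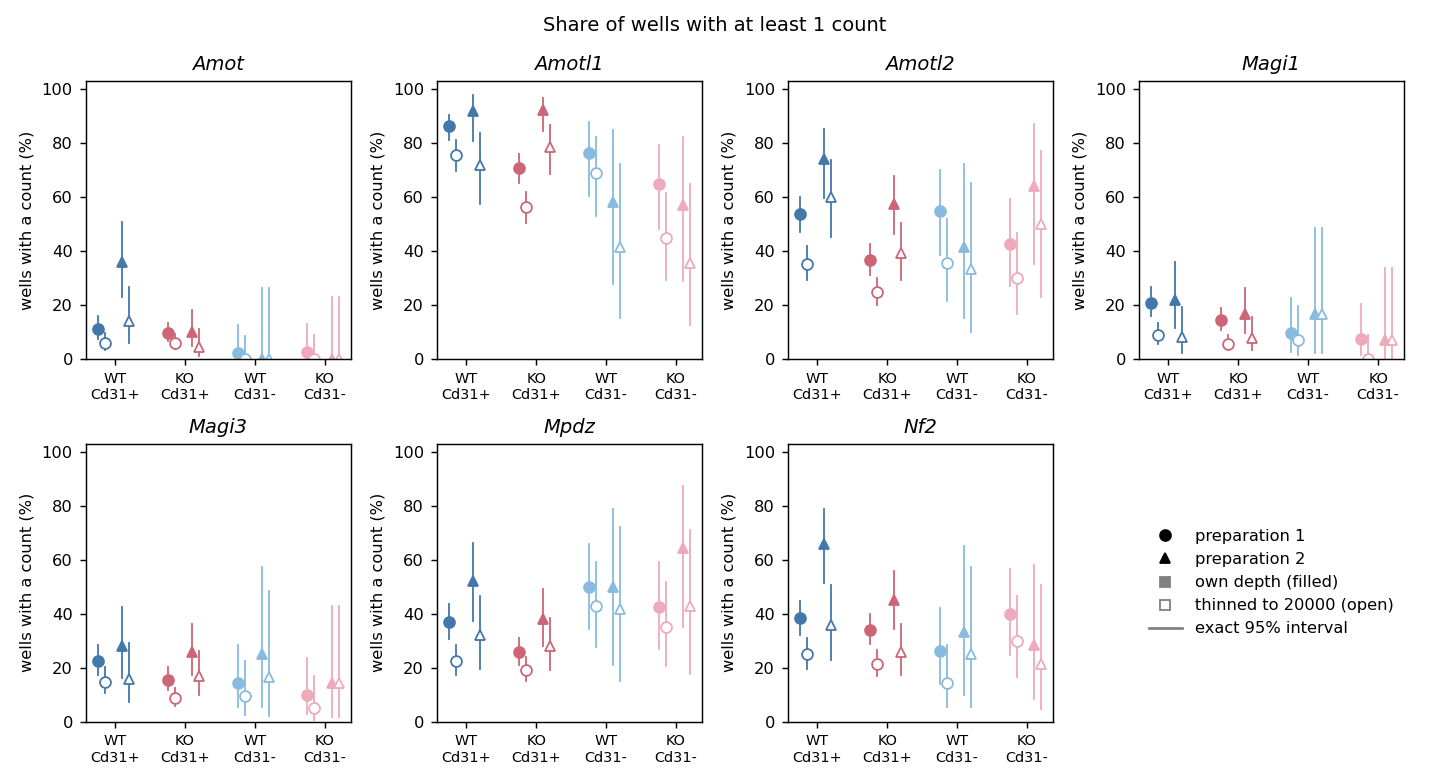
Percentage of wells with at least 1 count of each gene in the 8 sums, with exact 95% binomial intervals, at the wells' own depth (filled) and thinned to 20000 counts (open). Circles are preparation 1 and triangles preparation 2. At own depth, each gene but Amotl1 is found in a smaller share of KO than of WT Cd31+ wells in each preparation. After thinning this holds for Amotl2, Magi1, Mpdz and Nf2. Amot is found in 36% of WT Cd31+ wells of preparation 2 but in at most 11.1% of the wells of any other sum at their own depth.

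The 784 wells formed 7 clusters on the genes that varied most. Cluster 4 (84 wells) was led by Myh11, Cnn1 and Myl9 and is called smooth muscle-like. Cluster 5 (39 wells) was led by Tgfbi, Dcn and Smoc2 and is called fibroblast-like. Clusters 1, 2, 3, 6 and 7 held all Cd31+ wells but those in clusters 4 and 5, and 1 Cd31- well. They are left unnamed, since none had endothelial markers among its 10 leading genes. Leading genes were ranked against all other wells, most of them Cd31+, which leaves little room for markers that Cd31+ wells share. The median log2 fold of the endothelial markers over the other wells was 0.13 to 0.28 in these clusters. It was -3.88 in cluster 4 and -5.05 in cluster 5. Cluster 3, led by the class II genes Cd74 and H2-Aa, was 99.4% WT, and 155 of its 156 wells came from a single sum, WT Cd31+ preparation 1.

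Amotl1 varied little between the unnamed clusters, with a count in 63.1 to 73.1% of thinned wells, and was found in 54.8% of smooth muscle-like and 56.4% of fibroblast-like wells. Amotl2 had a count in 37.2% of thinned wells of cluster 3 and 31.7% of cluster 1, but in 2 of the 23 thinned wells of cluster 7 (8.70%, exact 95% interval 1.07 to 28.04%), which was led by Slc6a6, Ssu2 and Hapln1. Its share was highest in fibroblast-like wells, at 53.8% (37.2 to 69.9%), and 26.2% (17.2 to 36.9%) in smooth muscle-like wells. Mpdz was likewise most often found in fibroblast-like (46.2%) and smooth muscle-like wells (36.9%). Nf2 had its highest share in cluster 2, at 30.5%. Magi1 was found in 21.7% of cluster 7 and 18.2% of cluster 6, the latter led by Lrg1 and Aqp1, and in 5.22% of cluster 1. Clusters were made from the expression values themselves, so these are descriptions with no test.

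Within a cluster that both genotypes filled, the Amotl2 levels were compared by preparation. In cluster 1 of preparation 1, the 22 WT wells held 56.1 CPM of Amotl2 and the 159 KO wells 54.6, and in preparation 2 the 25 WT wells held 94.9 and the 42 KO wells 48.3. In cluster 2 the 22 WT wells of preparation 1 held 90.4 CPM and the 114 KO wells 56.0, and the 22 WT wells of preparation 2 held 97.7 and the 42 KO wells 45.1. KO was the lower in all 4 pairs, by a small margin in the first. Cluster 1 was led by Cfd, Car3 and Hp, and its 10 leading genes held the adipocyte markers Adipoq and Cidec, which were counted in 1 of its wells, in WT preparation 1. Without that well, the 21 WT wells held 61.3 CPM of Amotl2. Amotl1 was lower in KO in the same pairs, at 165 against 145 and 136 against 127 CPM in cluster 1, and at 204 against 167 and 157 against 152 CPM in cluster 2.

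**Figure D5:**
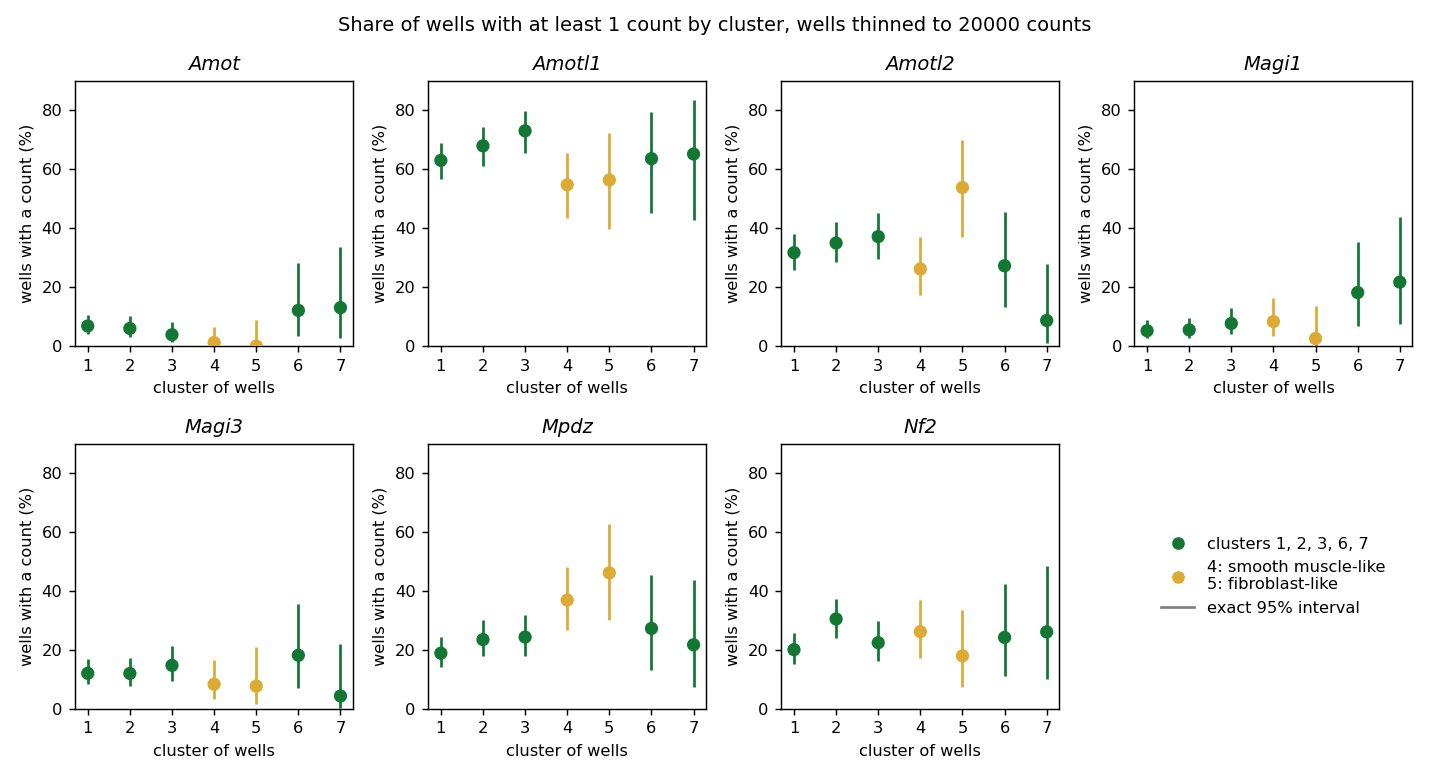
Percentage of wells with at least 1 count of each gene in the 7 clusters of wells, all wells thinned to 20000 counts, with exact 95% binomial intervals. Clusters 4 (smooth muscle-like) and 5 (fibroblast-like) are in yellow. Over WT and KO wells together, Amotl2 has its highest share in cluster 5 and its lowest in cluster 7, and the clusters differ in genotype.

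Genes that work with the angiomotins were read from 3 lists. The first held 21 polarity and junction partners, of which 14 passed the filter in each comparison; Crb1 and Pard6b had no count in any kept well. Between the gates 1 of the 14 rose and none fell, against 9.79% and 9.25% of all genes, and the median difference was 0.45, beside 0.15 over all genes. Tjp1, which encodes the junction scaffold ZO-1, was at 94.5 to 138 CPM in the Cd31+ and 21.3 to 74.5 CPM in the Cd31- sums (difference 1.24, SE 0.31, adjusted p = 0.0227). Between genotypes none was called in either gate. The smallest p in Cd31+ wells were those of Mpp5, the Pals1 gene of the Crumbs complex (KO effect 0.55, SE 0.32), and of the polarity gene Pard6g (3.12, SE 2.04). In the Cd31- wells they were those of Tjp1 (1.20, SE 0.66) and Mpp5 (-1.14, SE 0.66). The interaction, the KO effect in Cd31+ less that in Cd31- wells, was 1.67 (SE 0.62) for Mpp5 and -1.33 (SE 0.61) for Tjp1, and neither was called.

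The second list held 13 Hippo kinases and effectors. All 13 were tested between the gates, where 2 rose and 1 fell, against 9.79% and 9.25% of all genes, with a median of 0.25. The 3 encode TEAD factors, the DNA-binding partners of YAP, and Tead1, the other TEAD gene, was not called (difference -0.54, SE 0.49, adjusted p = 0.519). Each of the 3 fell under the filter on low counts in the gate where it was low. They entered this comparison through the gate where they are high, which limits what their p can show. Tead2 was at 7.91 to 24.9 CPM in Cd31+ and 0 to 2.16 CPM in Cd31- sums (difference 4.29, SE 1.19, adjusted p = 0.0362). Tead4 was at 2.83 to 11.04 CPM in Cd31+ sums and at 0 in every Cd31- sum, which made it at least 48.3-fold higher against 3 counts over the whole Cd31- group (adjusted p = 0.0137). Tead3 was at 0 to 0.885 CPM in Cd31+ and 7.08 to 15.1 CPM in Cd31- sums (difference -5.38, SE 1.12, adjusted p = 0.0109). Between genotypes none was called. In Cd31+ wells 12 were tested with a median KO effect of -0.13, and the smallest p were those of the kinase gene Stk4 (-1.32, SE 0.49) and of Tead2 (-1.19, SE 0.48). In Cd31- wells 11 were tested with a median of -0.064, and the smallest p were those of Yap1 (-1.21, SE 0.70) and the kinase gene Lats1 (-1.66, SE 1.05). Without KO preparation 1 these were -0.59 and -4.18, and without KO preparation 2 they were -2.11 and -0.83. The interaction had its smallest p in the kinase partner Mob1b (2.05, SE 1.14) and the kinase gene Lats2 (1.05, SE 0.60).

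The third list held 8 genes of angiomotin turnover, all tested in each comparison. Between the gates 1 rose and none fell, against 9.79% and 9.25% of all genes, with a median of -0.19. Tnks2, one of the tankyrases that mark angiomotins for degradation, was at 74.6 to 91.7 CPM in Cd31+ and 24.1 to 43.2 CPM in Cd31- sums (difference 1.07, SE 0.29, adjusted p = 0.0343). None was called between genotypes, with medians of -0.13 in Cd31+ and 0.34 in Cd31- wells. The smallest p in Cd31+ wells were those of the ubiquitin ligase genes Itch (-0.48, SE 0.42) and Nedd4 (0.16, SE 0.25). In Cd31- wells they were those of the tankyrase gene Tnks (2.39, SE 1.16) and the ligase gene Hecw2 (2.44, SE 2.19). The interaction had its smallest p in Tnks (-2.41, SE 1.13) and Tnks2 (-0.64, SE 0.58). With the suspension as a block the adjusted p between the gates was 0.0505 for Tjp1, 0.0726 for Tead2, 0.0621 for Tead4 and 0.0694 for Tnks2. It was below 0.05 only for Tead3. Among the 8 sums left out in turn, the call of Tead3 was lost without KO Cd31+ preparation 2 (adjusted p = 0.0644), and that of Tead4 without preparation 1 of KO (0.0561) or WT (0.0543) Cd31+. That of Tjp1 was lost without KO Cd31- preparation 1 (0.0770), KO Cd31+ preparation 1 (0.103) or 2 (0.0793), or WT Cd31+ preparation 2 (0.0986). Tead2 stayed called only without either KO Cd31- sum (0.0265 and 0.00476), and Tnks2 only without WT Cd31- preparation 2 (0.0223).

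Among 8783 genes with a mean of at least 10 CPM, those whose log2(CPM + 1) followed Amot most closely over the 8 sums were Nup160 (Pearson r = 0.991), Smpdl3a (0.982) and Shisa9 (0.980). For Amotl1 they were Ywhae (0.991), Ace (0.990) and Prkx (0.990). Smpdl3a, for example, stood at 529 to 709 CPM in Cd31+ and 153 to 236 CPM in Cd31- sums. The 8 sums fall into 2 gates and share wells of the same suspensions, and 480 genes had an r over 0.9 with Amot and 429 with Amotl1. For Amotl2, which did not follow the gates, the nearest were Dennd1b (0.950), Exosc4 (0.946) and Trak1 (0.921), 3 of 8 genes over 0.9, and each had its highest level in the Cd31- sum of KO preparation 2, at 30.2, 58.3 and 39.9 CPM. The correlations of Amotl2 with Amot (0.039) and Amotl1 (-0.17) were near 0.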

How the data were processed

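Single aortic cells of 1024 wells were measured by Smart-seq2. The deposited values are raw read counts per gene; per the labels and the study's methods, the authors aligned reads to GRCm38 with ERCC spike-ins and EYFP added (STAR 2.7.7a), removed duplicates (Picard 2.22.0) and counted with HTSeq 0.9.1. Reads carry no molecular identifiers, so counts are of reads rather than molecules, and intervals cover counting error only. The annotation release and any strand setting are not given in the sources used here; GENCODE M21 was used for lengths and positions. Gene lines held 51.9% of all counts, ERCC 1.25% and summary lines that name no gene 46.9%; the latter were left out of totals.

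Wells with at least 20000 gene counts and 500 genes were summed by genotype, gate and preparation, with 926398 to 94881185 gene counts a sum. The preparation was the replicate, since wells of a preparation are not independent and no label names the mouse; p-values measure the spread between 2 preparations of pooled mice. Sums were compared with edgeR 4.0.16 (R 4.3.3; TMM, filterByExpr, glmQLFit, glmQLFTest, Benjamini-Hochberg over all genes tested). Genotypes were compared within each gate, and the gates and their interaction over all 8 sums. The steps were tested on simulated counts. Wells were clustered with Seurat 5.3.0, without a doublet caller. Alternatives were RLE scaling, no filter, DESeq2 1.42.0, deeper wells, thinned wells, wells with a Cdh5 or EYFP count, a block and leaving out each sum. Fits by cluster and leaving out the well with adipocyte markers were chosen after seeing the data, as was the fit of the Cd31- genotype comparison on all 8 sums.

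The members and lists were chosen with earlier results of these data known. Named were the 7 genes, markers and EYFP, in each list the called genes or else the 2 with the smallest p, and the 3 genes most correlated with each angiomotin. The files use Inadl for Patj and Mpp5 for Pals1. Preparation numbers are shared by the labels: same-numbered WT and KO sums deviated together with r = 0.14 over genes in Cd31+ and 0.081 in Cd31- wells, and both gates of a suspension with r = 0.063 (WT) and 0.044 (KO).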

Additional observations from a re-analysis of the deposited data

How the results depend on the processing

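Of the 7 genes, none was called between genotypes under any alternative that could fit it, in either gate or in the interaction. The genotype comparison in Cd31+ wells called 0 of all genes in the report's fit, 1 with the preparation as a replicate block (the pairing of same-numbered sums), 1 with RLE, 1 in wells with a Cdh5 count, 1 with EYFP-counted KO wells, 1 in wells outside the smooth muscle-like and fibroblast-like clusters, 4 in thinned wells, 37 with DESeq2 and 104 without the filter. Leaving out 1 sum gave 5 without KO preparation 1, 35 without KO preparation 2, 221 without WT preparation 2 and 311 without WT preparation 1. In Cd31- wells the calls were 24 without the filter and 5 with DESeq2, and 0 to 79 with 1 sum left out (15 without KO preparation 2, 45 and 79 without WT preparation 1 and 2). The interaction gave 163 without the filter, 46 with DESeq2 and 0 to 42 with 1 sum left out, the 42 without WT Cd31- preparation 1. Between the gates, leaving out 1 sum gave 1355 to 2542 calls, against 2423, with 1355 to 1496 when a Cd31+ sum was left out; with the suspension as a replicate block there were 1779, and 0 of the 7 genes were called in place of 2. A group left with 1 sum was assumed to vary like the others. The cause of these changes was not tested.

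Signs turned in thinned wells for the KO effect of Amot (0.026) and Mpdz (-0.12) in Cd31+ wells, for Nf2 between gates (-0.13) and for the interaction of Amot (-0.0064) and Magi3 (0.37), and in wells of at least 100000 counts for the interaction of Amotl1 (-0.051). None of these was called in any fit, and the cause was not tested. With 1 sum left out, the KO effect in Cd31+ wells ran from -1.09 to 0.17 for Amot, -0.45 to 0.054 for Magi1, -0.068 to 0.35 for Mpdz and -1.01 to 0.34 for Itch, and in Cd31- wells from -0.58 to 0.11 for Amotl1 and -1.11 to 1.25 for Magi3. Between gates Amotl2 ran from -0.56 to 0.20 and Nf2 from -0.046 to 0.26. The interaction ran from -5.82 to 6.71 for Amot, -0.25 to 0.42 for Amotl1 and -2.21 to 0.18 for Magi3. Amot and Magi1 in Cd31- wells rested on 9 and 36 counts, which limits what depth can show there.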
